A study of Mus musculus with 10 samples.

Results

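The insulin-like growth factor (IGF) ligand genes Igf1 and Igf2 and 6 genes of IGF binding proteins, Igfbp2 to Igfbp7, were examined in pieces of the pancreas tail of female mice aged 12 weeks. The 8 genes were taken by symbol from a table of 24421 genes, and all 8 were found and passed the filter on low counts. The mice carried Ptf1aCreER, a tamoxifen-inducible Cre recombinase driven by a gene of the acinar cells, and the nuclear reporter nTnG. They differed in the insulin receptor gene Insr. The 3 libraries labelled Insr WT had no floxed allele (Insrw/w), the 3 labelled Insr Het had 1 (Insrw/f) and the 4 labelled Insr KO had 2 (Insrf/f). Cre can remove a floxed allele only in cells where the driver is active, so other cells of the piece keep it. Libraries are called by genotype and mouse number (WT-2404 and so on). The labels count 1 additional WT mouse, not analysed here.

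IGF1 and IGF2 are secreted peptides related to insulin that act mainly through the IGF1 receptor, while IGF2 is also bound and cleared by the receptor encoded by Igf2r. Most IGF outside cells is held by binding proteins, which lengthen its life, limit its access to receptors or release it when proteases cut them. IGFBP7 binds IGFs weakly and is often called IGFBP-related. Stromal and vascular cells are common sources of these proteins in solid organs, and growth hormone drives Igf1 most strongly in liver.

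Libraries held 11718559 to 19024351 gene counts, with overlapping depths between groups. Acinar mRNA dominated most libraries, as a list of 31 digestive enzyme genes took 74.3% to 80.7% of gene counts in 7 libraries. The share was 65.3% in KO-2124, 61.1% in WT-1860 and 16.6% in WT-2404. WT-2404 therefore stood apart, with a TMM factor of 3.53 against 0.596 to 1.56 in the other 9. In a bulk piece, fewer cells of a type and less RNA per cell cannot be told apart. Insr was at 21.0, 27.8 and 40.5 CPM (counts-per-million, TMM-scaled) in WT, at 43.1, 44.2 and 28.2 CPM in Het and at 22.7, 33.3, 35.4 and 34.6 CPM in KO libraries. These ranges overlap, and gene totals of a whole piece cannot show an exon lost from acinar cells, so Insr is no check of the genotypes.

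The levels of the genes were first set in order per kilobase of exon, since raw counts favour long transcripts. Igfbp7 had the highest mean, 80.1 ± 37.7 CPM per kb (SD, n = 10). Igfbp4 (28.2 ± 20.7), Igfbp6 (23.2 ± 7.91), Igfbp3 (20.2 ± 10.4) and Igfbp5 (17.2 ± 6.75) followed. Their order changed between libraries, as Igfbp4 and Igfbp6 were at 80.2 and 14.6 in WT-2404 and at 16.3 and 28.2 in Het-2066. Igfbp6 lay above Igfbp5 per kb in each of the 10 libraries, with exonic lengths of 1112 and 6006 bases. Its counts were 0.203 to 0.344 of those of Igfbp5, so this order rests on the lengths taken. The mean of Igf1 was below those of these 4 genes, at 6.51 ± 1.39 CPM per kb (SD, n = 10). Igf2 (0.545 ± 0.193) and Igfbp2 (0.257 ± 0.190) were the lowest. Of the ligands, the tail pieces thus held more Igf1 than Igf2 mRNA in each of the 10 libraries, with 3.80 to 8.13 CPM per kb for Igf1 and 0.312 to 0.813 for Igf2. Igfbp1, a binding protein made mainly by liver, had 1 count over all 10 libraries.

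**Figure D1:**
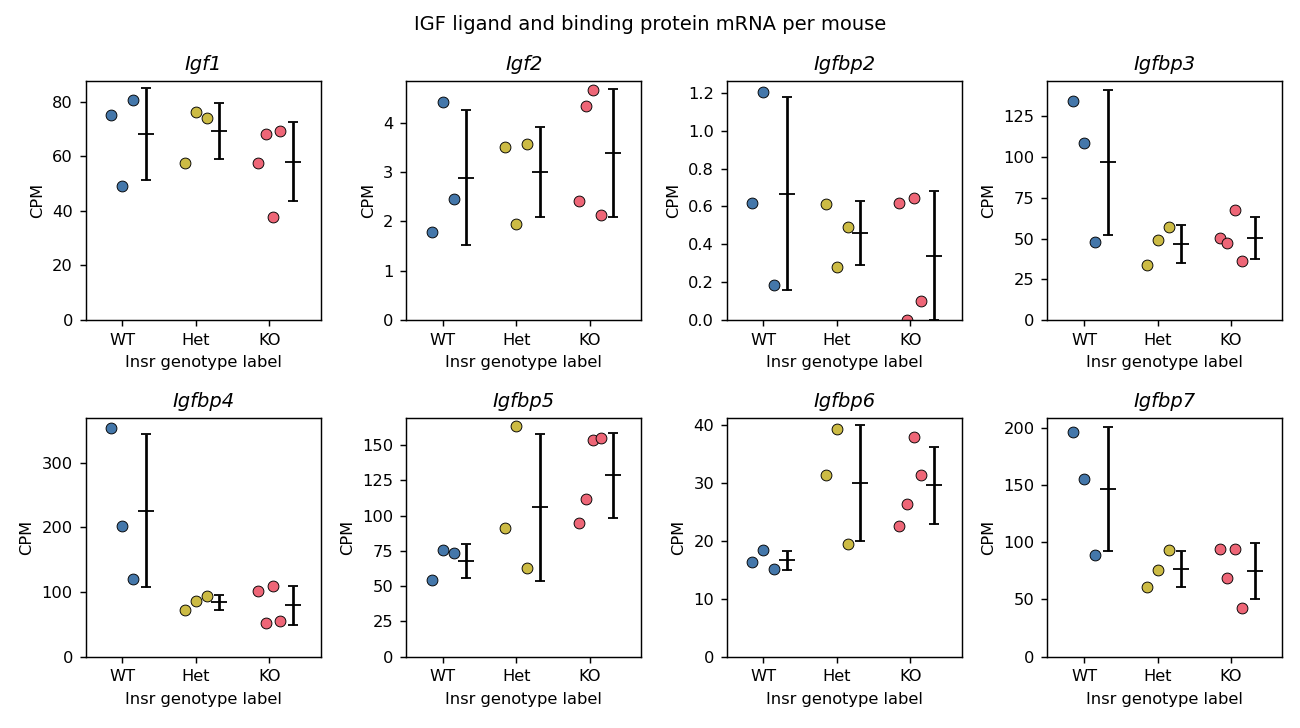
CPM of each gene (vertical axes, linear, from 0) in the WT, Het and KO libraries, 1 point per mouse, with the group mean and SD beside the points. Igfbp4 is higher in the 3 WT libraries than in the other 7, Igfbp6 is lower there (TMM-scaled values), and Igf1 overlaps between the groups. By library size alone the Igfbp6 log2 fold changes against WT are below 0.

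Igfbp4, Igfbp3 and Igfbp7 had higher levels in WT than in Het and KO libraries, and none passed the adjusted threshold. IGFBP4 mostly restrains IGF action until the protease PAPP-A cuts it. The gene lies on chromosome 11 (99041244 to 99054392, mm10, plus strand). Igfbp4 was at 354, 202 and 121 CPM in WT-2404, WT-1860 and WT-2067. It was at 71.8, 86.3 and 94.6 CPM in the Het libraries and at 101, 51.5, 110 and 55.2 CPM in the KO libraries. All 3 WT values lay above all 7 others, although WT-2067 stood close to KO-2124. The KO against WT log2 fold change of Igfbp4 was -1.51 (SE 0.37, edgeR adjusted p = 0.116), a level 2.84 times lower. Het against WT gave -1.42 (SE 0.41, edgeR adjusted p = 0.183). DESeq2 placed Igfbp4 past the threshold in both comparisons, with an adjusted p of 0.00761 for KO and 0.0337 for Het. Without WT-2404 the edgeR log2 fold changes were -1.01 and -0.92 (adjusted p = 0.504 and 0.616).

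IGFBP3 is the main carrier of IGFs in blood and is also made by stromal and endothelial cells. Its gene is on chromosome 11 as well (7206086 to 7213923, minus strand). Igfbp3 was at 134, 109 and 47.6 CPM in WT-2404, WT-1860 and WT-2067, at 33.8, 49.2 and 56.9 CPM in Het and at 50.6, 47.5, 67.7 and 36.6 CPM in KO libraries. Only WT-2404 and WT-1860 lay above the others, and WT-2067 lay among the Het and KO libraries. On the log2 scale Igfbp3 differed by -0.94 (SE 0.33, edgeR adjusted p = 0.138) for KO against WT and -1.05 (SE 0.36, edgeR adjusted p = 0.183) for Het against WT. Without WT-2404 these became -0.61 and -0.72.

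IGFBP7 is a secreted protein of vessel walls and activated fibroblasts. Its gene, on chromosome 5 (77349240 to 77408041, minus strand), overlaps Polr2b on the opposite strand, so reads of the 2 genes may be mixed if strand was not used. Igfbp7 was at 196, 155 and 88.6 CPM in WT-2404, WT-1860 and WT-2067, at 61.3, 75.7 and 92.8 CPM in Het and at 93.9, 69.0, 94.4 and 42.3 CPM in KO libraries. As for Igfbp3, WT-2067 lay within the range of the KO libraries. Its log2 fold changes were -0.97 (SE 0.33, edgeR adjusted p = 0.129) for KO and -0.94 (SE 0.36, edgeR adjusted p = 0.202) for Het against WT. Without WT-2404 they were -0.69 and -0.65.

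Without WT-2067, edgeR placed Igfbp3, Igfbp4 and Igfbp7 past the threshold against WT, both for KO (3 of 8 genes, log2 fold changes of -1.25, -1.80 and -1.22) and for Het (3 of 8 genes, -1.37, -1.72 and -1.19). In that fit 13.6% of all genes tested passed for KO and 8.17% for Het. With TMM scaling, the edgeR calls of these 3 genes therefore turned on which WT libraries were included.

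Of the 5 binding protein genes that differed most, 3 had higher means in WT libraries and 2 lower means on TMM-scaled values. These sets are called blocks here. Their orders across libraries were not strictly opposite, as KO-2124 was the highest KO library for Igfbp3, Igfbp4, Igfbp7 and Igfbp6. The promoters of the 5 genes are shown. Each is the 250 bases before the RefSeq start (GRCm38.p6, the build of mm10), and capitals mark exact matches on either strand to the TATA box (TATAAA), the CCAAT box (spelled by its name), the GC box (GGGCGG), the AP-1 site (TGACTCA) or the E-box (CACGTG). No matches overlapped in the windows shown. For the block that was higher in WT, the windows are chr11:99040994-99041243 (plus strand) for Igfbp4, chr11:7213924-7214173 (minus strand) for Igfbp3 and chr5:77408046-77408295 (minus strand) for Igfbp7.
Igfbp4: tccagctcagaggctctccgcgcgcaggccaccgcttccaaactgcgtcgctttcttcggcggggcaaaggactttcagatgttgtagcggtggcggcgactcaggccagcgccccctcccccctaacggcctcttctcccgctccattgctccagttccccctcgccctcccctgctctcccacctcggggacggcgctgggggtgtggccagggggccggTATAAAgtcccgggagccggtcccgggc
Igfbp3: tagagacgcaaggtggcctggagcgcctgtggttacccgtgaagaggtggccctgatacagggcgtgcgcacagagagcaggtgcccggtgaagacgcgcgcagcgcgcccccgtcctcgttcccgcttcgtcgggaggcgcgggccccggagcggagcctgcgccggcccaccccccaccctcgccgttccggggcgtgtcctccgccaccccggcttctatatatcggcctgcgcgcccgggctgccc
Igfbp7: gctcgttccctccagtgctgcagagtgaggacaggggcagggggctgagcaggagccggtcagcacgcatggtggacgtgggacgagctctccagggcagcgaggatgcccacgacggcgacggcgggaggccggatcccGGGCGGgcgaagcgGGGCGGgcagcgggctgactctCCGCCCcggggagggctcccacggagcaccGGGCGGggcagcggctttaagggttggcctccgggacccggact
The Igfbp4 window held 1 TATA box, which began 28 bases before the start, and the letters TATAAA occurred in 12.4% of 32851 such windows. The Igfbp7 window held 4 GC boxes, which began 110, 96, 74 and 44 bases before the start, and 32.7% of windows held at least 1. None of the 5 motifs matched exactly in the Igfbp3 window. Variants of the letters, such as the tatatat near the end of this window, were not searched for. All 3 windows were rich in G and C, with 69.2%, 73.2% and 74.0% in this order, against a median of 52.4% over all windows.

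Igfbp5 and Igfbp6 had the opposite order on TMM-scaled values, with lower levels in WT than in KO libraries, and neither passed the edgeR threshold. IGFBP5 is the most conserved of the family, binds extracellular matrix and can either restrain or aid IGF action. Its gene is on chromosome 1 (72857932 to 72874884, minus strand). Igfbp5 was at 54.2, 75.8 and 73.3 CPM in WT-2404, WT-1860 and WT-2067, at 90.9, 164 and 62.7 CPM in Het and at 94.4, 112, 153 and 155 CPM in KO libraries. All 4 KO values lay above all 3 WT values, while Het-2042 lay among the WT libraries. The KO against WT log2 fold change of Igfbp5 was 0.92 (SE 0.33, edgeR adjusted p = 0.138), or -0.13 by library size alone, where the median of all genes was -1.17. Het against WT gave 0.64 (SE 0.35, edgeR adjusted p = 0.301), or -0.68 by library size alone, where that median was -1.36. It rested on Het-1770, without which it was 0.19.

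IGFBP6 binds IGF2 with much higher affinity than IGF1. Its gene is on chromosome 15 (102144362 to 102149511, plus strand). Igfbp6 was at 16.3, 18.5 and 15.2 CPM in WT-2404, WT-1860 and WT-2067, at 31.3, 39.2 and 19.4 CPM in Het and at 22.6, 26.3, 37.9 and 31.4 CPM in KO libraries. The WT libraries were close together and all lay below the other 7. On the log2 scale Igfbp6 differed by 0.83 (SE 0.25, edgeR adjusted p = 0.121) for KO against WT and 0.85 (SE 0.26, edgeR adjusted p = 0.183) for Het against WT. By library size alone these were -0.31 and -0.56, again above the medians of all genes. DESeq2 placed Igfbp6 past the threshold in KO against WT (adjusted p = 0.0465) and not in Het against WT (adjusted p = 0.0801). Igfbp6 was at 0.81 and 0.84 without WT-2404 and, over all libraries left out in turn, at 0.66 to 0.94 for KO and 0.61 to 1.09 for Het. Igfbp5 was at 0.78 and 0.51 without WT-2404. With the enzyme share as a covariate Igfbp6 was at 0.86 and 0.88. It passed in none of these edgeR settings.

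The promoter windows of this pair are chr1:72874866-72875115 (minus strand) for Igfbp5 and chr15:102143936-102144185 (plus strand) for Igfbp6.
Igfbp5: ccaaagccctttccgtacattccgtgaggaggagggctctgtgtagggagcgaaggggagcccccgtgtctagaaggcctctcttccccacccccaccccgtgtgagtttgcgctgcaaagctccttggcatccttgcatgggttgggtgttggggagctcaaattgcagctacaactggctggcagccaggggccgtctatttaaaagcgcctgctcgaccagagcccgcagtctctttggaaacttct
Igfbp6: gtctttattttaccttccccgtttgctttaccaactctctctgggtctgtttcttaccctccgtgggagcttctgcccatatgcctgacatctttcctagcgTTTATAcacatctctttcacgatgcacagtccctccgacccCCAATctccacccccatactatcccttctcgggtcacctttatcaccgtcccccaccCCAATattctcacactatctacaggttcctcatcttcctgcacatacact
The Igfbp6 window held 1 TATAAA on the minus strand, beginning 148 bases before the start, and 2 CCAAT boxes, beginning 107 and 50 bases before it. This window ends at 102144185, short of the gene start given above (102144362). The Igfbp5 window begins at 72874866 and so overlaps its gene, which reaches 72874884 on the minus strand. The matches, distances and base content of Igfbp5 and Igfbp6 therefore hold for the RefSeq starts alone. CCAAT occurred in 33.8% of all windows. None of the 5 motifs matched exactly in the Igfbp5 window. With 58.8% for Igfbp5 and 49.6% for Igfbp6, both windows held less G and C than the 3 shown before.

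The ligand genes were examined next. Igf1, on chromosome 10 (87858265 to 87937042, plus strand), encodes the ligand that mediates much of the effect of growth hormone. Igf1 was at 75.3, 49.1 and 80.5 CPM in WT-2404, WT-1860 and WT-2067, at 57.3, 76.2 and 74.1 CPM in Het and at 57.4, 68.1, 37.6 and 69.1 CPM in KO libraries. The groups overlapped, and the lowest value was that of KO-2124. The log2 fold change of Igf1 was -0.24 (SE 0.26, edgeR adjusted p = 0.595) for KO and 0.02 (SE 0.28, edgeR adjusted p = 0.975) for Het against WT. By library size alone Igf1 passed the threshold in KO against WT, at -1.56 (edgeR adjusted p = 0.0357), where the median of all genes was -1.17. Igf1 varied 2.14-fold between its highest and lowest library and Igf2 2.60-fold, beside 2.58-fold for Igfbp6, 3.02-fold for Igfbp5, 3.97-fold for Igfbp3, 4.63-fold for Igfbp7 and 6.88-fold for Igfbp4. After TMM scaling WT-2404, with the lowest enzyme share, stood at an Igf1 level close to WT-2067. Before scaling it held 4506 Igf1 counts, against 1315 in WT-2067, of 16942368 and 18588327 gene counts.

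Igf2, on chromosome 7 (142650766 to 142666816, minus strand), encodes a ligand best known for fetal growth and is transcribed from the paternal allele in most tissues. It overlaps the gene models Gm49394, Mir483 and Igf2os, and its values are uncertain to that extent. Igf2 was at 1.79, 4.43 and 2.45 CPM in WT-2404, WT-1860 and WT-2067, at 3.51, 1.96 and 3.56 CPM in Het and at 2.41, 4.35, 4.65 and 2.12 CPM in KO libraries, from 21 to 107 counts per library. The groups overlapped, with KO-2124 highest and WT-2404 lowest. The log2 fold changes were 0.25 (SE 0.41, edgeR adjusted p = 0.738) for KO and 0.08 (SE 0.43, edgeR adjusted p = 0.926) for Het against WT, and without WT-2404 they were -0.02 and -0.17.

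Igfbp2, a binding protein abundant in liver and fetal tissue, was on chromosome 1 (72824503 to 72852474, plus strand), close to Igfbp5. It had 37, 22 and 3 counts in WT-2404, WT-1860 and WT-2067, 7, 3 and 8 counts in Het and 10, 0, 14 and 1 counts in KO libraries. The count of 0 in KO-2070 allows a level of up to 0.395 CPM (3 counts, counting error only), above the 0.184 CPM of WT-2067. The log2 fold changes of Igfbp2, -0.77 (SE 0.81, edgeR adjusted p = 0.579) for KO and -0.52 (SE 0.87, edgeR adjusted p = 0.755) for Het against WT, were smaller than their errors.

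In KO against WT, 0 of the 8 genes passed an edgeR adjusted p of 0.05, as did 0% of 13688 genes tested (the lowest edgeR adjusted p was 0.116). Unadjusted, 5 of 8 genes had p under 0.05 in edgeR, 3 lower (Igfbp3, Igfbp4, Igfbp7) and 2 higher in KO libraries (Igfbp5, Igfbp6), beside 23.5% of all genes, 13.9% lower and 9.6% higher. The groups did not overlap for 3 of 8 genes, beside 15.9% of all genes. Of these, Igfbp5 and Igfbp6 were higher in KO libraries, beside 6.74%, and Igfbp4 lower, beside 9.17%. The log2 fold change was below 0 for 5 of 8 genes, beside 48.2%. In DESeq2, 2 of 8 genes passed, Igfbp4 and Igfbp6, beside 7.37% of all genes. In Het against WT, 0 of 8 genes passed in edgeR, as did 0% of all genes (smallest adjusted p = 0.183), and 4 of 8 had an unadjusted p under 0.05 in edgeR, beside 19.8% of all genes. Igfbp3, Igfbp4 and Igfbp7 were the lower ones, beside 11.6%, and Igfbp6 the higher one, beside 8.26%. Groups were separate there for 2 of 8 genes, beside 24.8%, with Igfbp6 higher (beside 11.3%) and Igfbp4 lower (beside 13.5%) in Het libraries. In DESeq2 1 of 8 passed, beside 2.38%, and 4 of 8 log2 fold changes were below 0, beside 49.7%. The median log2 fold change over the 8 genes was -0.50 in KO and -0.25 in Het against WT, beside 0.03 and 0.00 over all genes tested. Both comparisons share the WT libraries, so their values are not independent of each other.

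**Figure D2:**
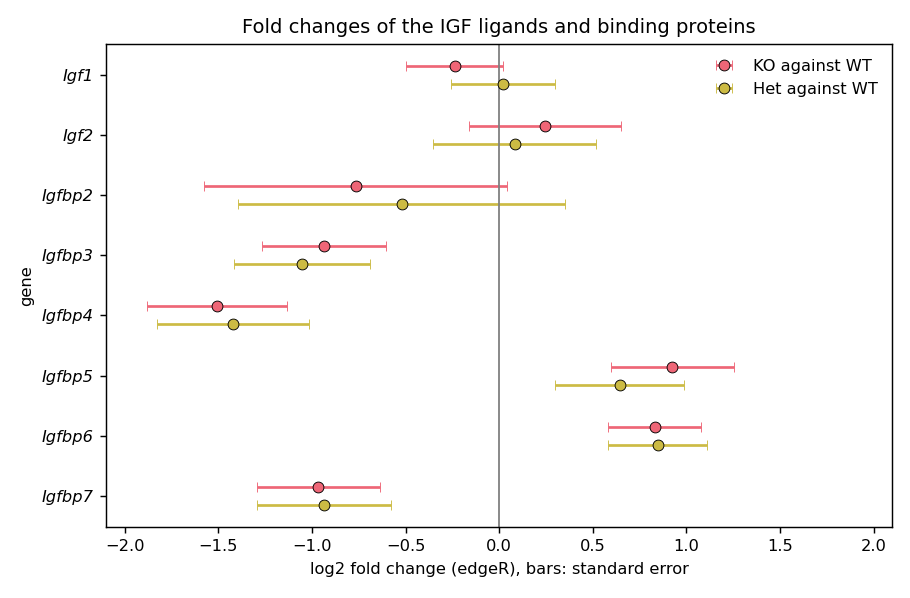
edgeR log2 fold changes (horizontal axis) of the 8 genes for KO and Het against WT, with bars of 1 standard error. Igfbp3, Igfbp4 and Igfbp7 lie left of 0 and Igfbp5 and Igfbp6 right of it with TMM scaling (left of 0 by library size alone), and no gene passed the adjusted threshold.

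KO and Het libraries were then compared with each other, to see whether the number of floxed alleles mattered among mice with at least 1. In KO against Het, 0 of the 8 genes passed in edgeR, as did 0% of all genes, and 0 of 8 had an unadjusted p under 0.05 in edgeR, beside 0.752% of all genes. DESeq2 called 0 genes as well. The groups overlapped for all 8 genes, and 2.46% of all genes had separate ranges. Igfbp5 had a log2 fold change of 0.28 (SE 0.32, edgeR adjusted p = 1.0), which was 0.74 without Het-1770 and 0.014 without Het-2042. Igf1 had -0.26 (SE 0.26). Igfbp4 at -0.08 (SE 0.37), Igfbp6 at -0.02 (SE 0.24) and Igfbp7 at -0.03 (SE 0.33) were near 0. Standard errors ran from 0.24 to 0.88, so these values do not show that the groups were alike.

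Ratios between binding protein counts within a library need no scaling factor. They were chosen after the values above were seen and were not tested. Every WT library was higher in Igfbp4 and lower in Igfbp6 than all others, so the separation of that ratio was fixed in advance. The same holds for Igfbp5 to Igfbp4 in KO against WT libraries. The count ratio of Igfbp5 to Igfbp4 was 0.153, 0.375 and 0.608 in WT-2404, WT-1860 and WT-2067. It was 1.27, 1.90 and 0.663 in the Het libraries and 0.935, 2.17, 1.40 and 2.80 in the KO libraries. All WT ratios lay below all others, with WT-2067 and Het-2042 close together. The ratio of Igfbp6 to Igfbp4 was 0.0459, 0.0914 and 0.126 in WT, 0.436, 0.455 and 0.205 in Het and 0.223, 0.512, 0.346 and 0.569 in KO libraries. Here the gap between the highest WT library and the lowest of the others was wider. The ratio of Igfbp6 to Igfbp5 was between 0.203 and 0.344 over all 10 libraries, and its groups overlapped. The ratio of Igfbp7 to Igfbp4 was 0.553 to 0.765 in WT, 0.853 to 0.982 in Het and 0.766 to 1.34 in KO libraries, so the WT libraries lay below the others here too, by little. The ratio of Igfbp4 to Igfbp3 was 1.86 to 2.64 in WT, 1.66 to 2.12 in Het and 1.08 to 1.999 in KO libraries.

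**Figure D3:**
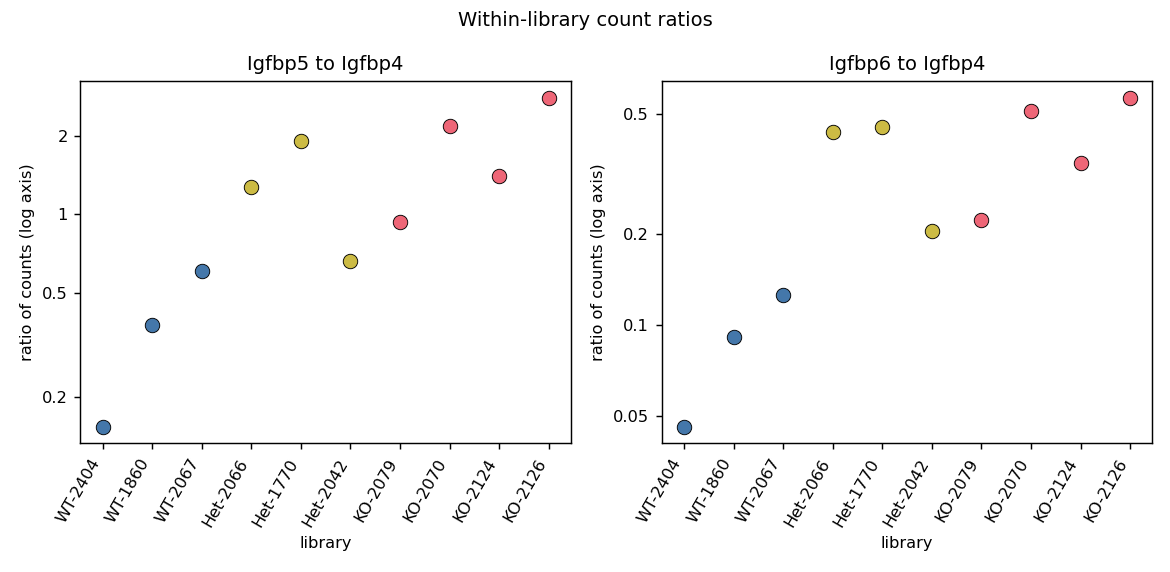
Ratio of Igfbp5 to Igfbp4 counts and of Igfbp6 to Igfbp4 counts (vertical log axes) in each of the 10 libraries, coloured by genotype label. In both panels the 3 WT libraries lie below the Het and KO libraries, at 0.153 to 0.608 and at 0.0459 to 0.126. For Igfbp6 to Igfbp4 this order was fixed in advance by the order of each gene alone.

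Shares of the summed CPM per kb of the 6 binding proteins are given as mean ± SD over the 3 WT, 3 Het and 4 KO libraries, in that order. Igfbp7 took 52.6% ± 1.02, 44.6% ± 7.49 and 42.3% ± 8.36. Igfbp4 took 21.5% ± 3.87, 13.5% ± 1.32 and 12.2% ± 2.53. Igfbp6 took 7.11% ± 2.45 in WT, 19.1% ± 6.10 in Het and 18.9% ± 4.78 in KO libraries, and Igfbp5 took 5.61% ± 2.86, 12.2% ± 4.88 and 15.4% ± 5.26. The sum itself was 309, 238 and 142 CPM per kb in WT-2404, WT-1860 and WT-2067 and 113 to 184 in the other 7 libraries. WT-2067 therefore held about as much binding protein mRNA as the Het and KO libraries, while its shares of Igfbp4 (19.3%) and Igfbp6 (9.63%) lay outside the ranges of those 7, 9.24% to 14.9% and 12.1% to 24.9%. Its shares of Igfbp7 (51.7%), Igfbp5 (8.61%), Igfbp3 (10.7%) and Igfbp2 (0.0702%) lay within the ranges of those 7 for the same genes.

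Markers of the cell types that could hold these mRNAs were set beside them. The 16 fibroblast markers summed to 1578 to 5133 CPM in WT, 692 to 1278 in Het and 630 to 1465 in KO libraries, and 15 of 16 had a KO against WT log2 fold change below 0 (median -1.11, or -0.70 without WT-2404). The 11 macrophage markers summed to 463 to 1899 CPM in WT, 253 to 382 in Het and 150 to 550 in KO libraries, and 11 of 11 were below 0 (median -1.70, or -0.88 without WT-2404). WT-2404 was the highest library for both sums and for Igfbp3, Igfbp4 and Igfbp7, and WT-1860 the next. Of 10 markers of mural and smooth muscle cells 9 were below 0 (median -0.53), with sums of 92.9 to 148 CPM in WT, 78.1 to 85.5 in Het and 42.6 to 104 in KO libraries. Of 8 ductal markers 6 were below 0 (median -1.28), with sums of 770 to 1253 CPM in WT and 367 to 637 in the other 7 libraries.

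Endothelial markers were not ordered like Igfbp3, Igfbp4 and Igfbp7, as KO-2070 had the highest sum. Their 12 genes summed to 219 to 345 CPM in WT, 288 to 327 in Het and 199 to 402 in KO libraries, and 3 of 12 had a KO against WT log2 fold change below 0 (median 0.24), or 12 of 12 by library size alone. The 5 mesothelial markers, of the cells that line the organ surface, summed to 38.8, 29.0 and 21.9 CPM in WT-2404, WT-1860 and WT-2067, 37.9, 51.6 and 20.9 in Het and 25.0, 32.4, 55.2 and 49.9 in KO libraries. The 3 libraries highest in that sum, KO-2124, Het-1770 and KO-2126, were also the 3 highest in Igfbp6. Het-2066, with a sum of 37.9, was close behind in Igfbp6, at 31.3 CPM against 31.4 in KO-2126. WT-2404 departs from this order, with the highest mesothelial sum after those 3 and an Igfbp6 level below all but WT-2067. In KO against WT 4 of 5 markers had a log2 fold change above 0 (median 0.77), or 1 of 5 by library size alone. For Het these were 3 of 5 (median 0.61) and 0 of 5. Lymphocyte markers, 8 of 9 matched, summed to 15.9 to 38.7 CPM in WT, 7.85 to 8.24 in Het and 2.42 to 22.0 in KO libraries. All 8 were below 0 against WT, with a median of -1.32 for KO and -1.71 for Het. The 8 adipocyte markers summed to 41.6 to 51.1 CPM in WT, 64.8 to 90.3 in Het and 47.7 to 94.3 in KO libraries, with 7 of 8 above 0 in KO against WT, or 0 of 8 by library size alone. The 13 islet markers summed to 476 to 5709 CPM in WT, 4974 to 9909 in Het and 3625 to 8523 in KO libraries. Of 12 tested, 11 were above 0 in KO (median 0.80) and 12 in Het (median 1.23) against WT. By library size alone these were 7 and 11. All 31 enzyme genes were above 0 in both comparisons (medians 1.17 and 1.24), or 29 in each by library size alone. All 5 acinar transcription factors were above 0 too (medians 0.64 and 0.61), or 2 and 1 by library size alone. No marker of any list named here was at 0 in all 10 libraries. The part of these cell types in the values of the binding proteins was not tested.

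**Figure D4:**
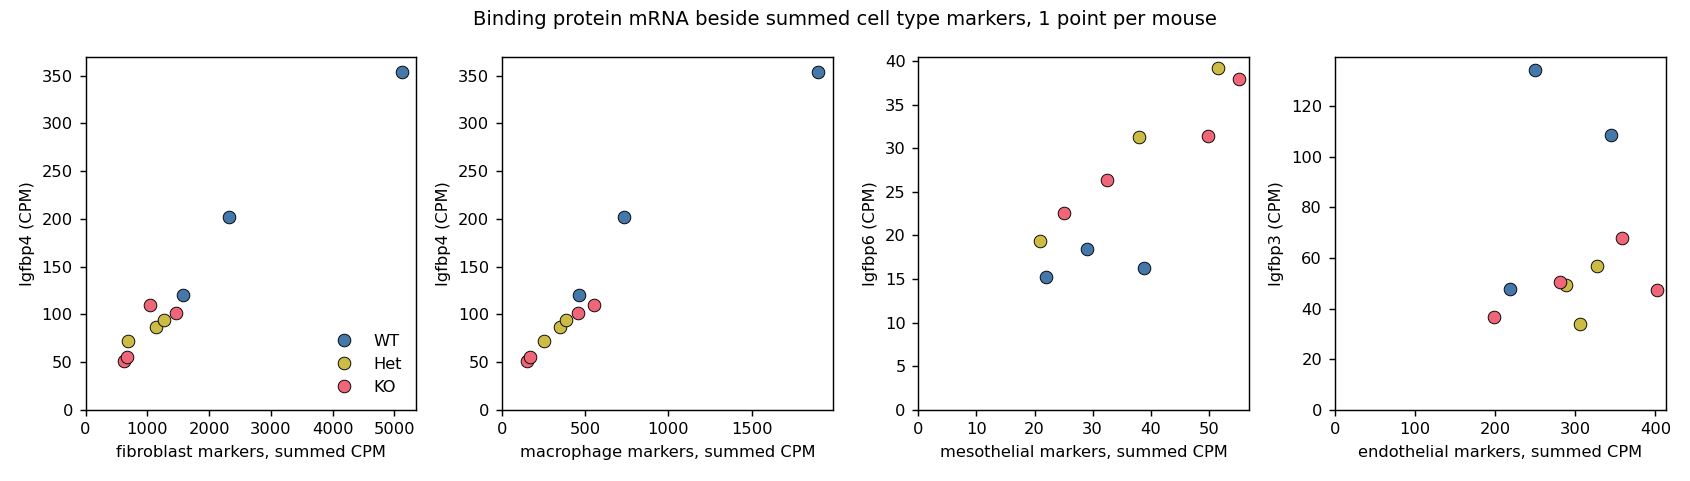
CPM of a binding protein gene (vertical axes) against the summed CPM of a marker list (horizontal axes), 1 point per mouse, coloured by genotype label. Igfbp4 is highest in the WT libraries with the most fibroblast and macrophage marker counts, and Igfbp3 spans 33.8 to 134 CPM over endothelial sums of 199 to 402 CPM. Igfbp6 is highest in the 3 libraries with the highest mesothelial sums (49.9 to 55.2 CPM). Het-2066, at a sum of 37.9, is close behind, and WT-2404, at 38.8, is low in Igfbp6 (16.3 CPM).

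With the enzyme share as a covariate, the KO against WT log2 fold changes were -0.74 for Igfbp4, -0.35 for Igfbp3, -0.47 for Igfbp7, 0.74 for Igfbp5 and 0.86 for Igfbp6, with edgeR adjusted p of 0.855 to 0.932.

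Other genes of the pathway were read from 4 lists. Of 6 receptors and adaptors, all tested, 0 passed in edgeR in any comparison. With an unadjusted p under 0.05 in edgeR, Igf1r and Irs2 were higher in KO than in WT libraries and Igf1r in Het than in WT libraries (lower in each case by library size alone). Of all genes tested, 9.6% were higher at that p in KO and 8.26% in Het against WT. Igf1r, the receptor for both ligands, was at 17.7, 14.5 and 20.6 CPM in WT, at 31.6, 22.1 and 21.5 CPM in Het and at 25.0, 28.2, 28.5 and 28.4 CPM in KO libraries. Every Het and KO value exceeded every WT value on this scale. Such a separation upward was seen for 6.74% of all genes in KO and 11.3% in Het against WT. The KO against WT log2 fold change of Igf1r was 0.64 (SE 0.19, edgeR adjusted p = 0.119), or -0.53 by library size alone. DESeq2 placed Igf1r past the threshold (adjusted p = 0.0419), as did edgeR without WT-2067 (adjusted p = 0.0362), beside 7.37% and 13.6% of all genes. Without WT-2404 Igf1r was at 0.64 (edgeR adjusted p = 0.504). Irs2, an adaptor of the insulin and IGF1 receptors, stood at 3.21, 3.72 and 4.23 CPM in WT and at 7.54, 5.004, 5.44 and 8.18 CPM in KO libraries. The difference on the log2 scale was 0.82 (SE 0.30, edgeR adjusted p = 0.143), or -0.33 by library size alone. Igf2r, which clears IGF2, was at 33.0 to 37.0 CPM in WT, 34.1 to 34.9 CPM in Het and 25.1 to 39.8 CPM in KO libraries.

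Of 10 carriers, IGFBP proteases and their inhibitors, 8 were tested and 0 passed in edgeR. Pappa, the protease that cuts IGFBP4, was low, at 0.612 to 2.08 CPM in WT and 0.505 to 1.11 CPM in KO libraries (log2 fold change -0.69, SE 0.49, edgeR adjusted p = 0.391). Pappa2, which cuts IGFBP3 and IGFBP5, was at 0.518, 5.14 and 3.25 CPM in WT and at 3.13 to 8.95 CPM in KO libraries (log2 fold change 0.75, SE 0.63, edgeR adjusted p = 0.484, or -0.08 by library size alone and -0.20 with the enzyme share as covariate). Stc2, an inhibitor of these proteases, was the 1 gene of the list below an unadjusted p of 0.05 for KO against WT, with a log2 fold change of 0.84 (SE 0.28, edgeR adjusted p = 0.129), or -0.35 by library size alone. Beside it, 9.6% of all genes were higher at that unadjusted p in edgeR. Igfals, which joins IGF and IGFBP3 in the large complex of blood, was at 2.49 to 6.85 CPM over all libraries.

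H19, a non-coding RNA next to Igf2 that is transcribed from the other parental allele, had the largest log2 fold change of the pathway genes tested in KO against WT. It was at 9.39, 13.01 and 7.96 CPM in WT-2404, WT-1860 and WT-2067, at 1.93, 3.82 and 5.95 CPM in Het and at 4.70, 1.19, 2.44 and 1.62 CPM in KO libraries. All WT values lay above all others, while Igf2 itself overlapped between the groups. Such a separation downward was seen for 9.17% of all genes in KO and 13.5% in Het against WT. On the log2 scale H19 differed by -1.97 (SE 0.44, edgeR adjusted p = 0.116) for KO and -1.36 (SE 0.47, edgeR adjusted p = 0.184) for Het against WT. DESeq2 placed it past the threshold for KO (adjusted p = 0.00486) and not for Het (adjusted p = 0.0923), and edgeR did so for KO without WT-2067 (adjusted p = 0.0249). Igf2bp1 and Igf2bp3, of the proteins that bind Igf2 mRNA, had 2 and 7 counts in all and were not tested. In the growth hormone list, 0 of 6 genes passed in edgeR. The receptor gene Ghr was at 21.5, 32.9 and 50.5 CPM in WT and at 47.3, 69.7, 32.2 and 93.9 CPM in KO libraries (log2 fold change 0.80, SE 0.36, edgeR adjusted p = 0.209, or -0.30 by library size alone).

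**Figure D5:**
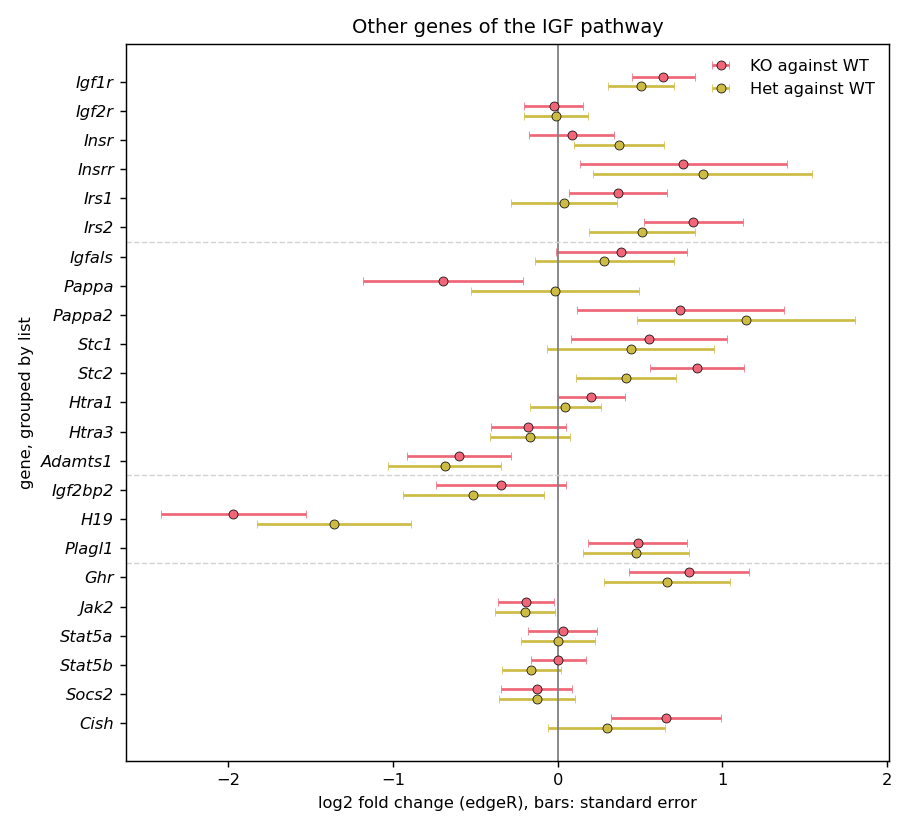
edgeR log2 fold changes (horizontal axis, bars of 1 standard error) of the 23 tested pathway genes for KO and Het against WT, grouped by list between dashed lines. H19 lies farthest from 0, at -1.97 and -1.36, no gene passed the adjusted threshold, and Igf1r, Irs2, Stc2 and Ghr lie right of 0 here but left of it by library size alone.

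The genes whose log2 CPM over the 10 libraries was most like that of each member were named among 13680 other tested genes. These values are descriptions of shared order in libraries that also share scaling and tissue makeup. Igfbp4 was most like Tpm4 (Pearson r = 0.993, Spearman rho = 0.976), Rcn3 (r = 0.992) and Tgfbi (r = 0.991), and without WT-2404 these were 0.985, 0.988 and 0.987. Tpm4 encodes a tropomyosin, Rcn3 a calcium-binding protein of the endoplasmic reticulum and Tgfbi a secreted matrix protein. Igfbp7 was most like Bak1 (r = 0.990), Sirpa (r = 0.989), a receptor of myeloid cells, and Itpripl2 (r = 0.985), and Igfbp3 was most like Crip1 (r = 0.977), Emp3 (r = 0.975) and Tmem154 (r = 0.972). Igfbp6 was most like the mesothelial marker Upk3b (r = 0.939, rho = 0.903, and 0.945 without WT-2404), followed by Mettl18 (r = 0.913) and Fam150b (r = 0.896). Igfbp5 was most like Ubtf (r = 0.972), Epb4.1 (r = 0.971) and Exd2 (r = 0.966). Igf1 was most like Fam20c (r = 0.950), C77080 (r = 0.947) and Rab7 (r = 0.931). For Igf2 and Igfbp2, whose counts were low, the first genes were 1700094D03Rik (r = 0.962) and Adora2a (r = 0.956).

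Among the 28 pairs of the 8 genes, the likeness was highest for Igfbp3 with Igfbp7 (r = 0.941), Igfbp4 with Igfbp7 (r = 0.940), Igfbp3 with Igfbp4 (r = 0.907) and Igfbp5 with Igfbp6 (r = 0.900), and without WT-2404 these were 0.899, 0.902, 0.821 and 0.880. Pairs across the blocks were negative, from -0.50 for Igfbp3 with Igfbp6 to -0.67 for Igfbp5 with Igfbp7, and from -0.26 to -0.51 without WT-2404. The blocks were set by WT levels in these same libraries, so these signs are no separate evidence for them. For Igf1 every Pearson r with another member was below 0, from -0.66 with Igf2 to -0.05 with Igfbp4. Igf2 had r of 0.01 with Igfbp3 and 0.0036 with Igfbp7, which were 0.52 and 0.46 without WT-2404.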

How the data were processed

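One RNA sequencing library per mouse was used, 10 in all. The authors deposited raw counts per gene symbol. Per the submitters' processing notes the build was mm10 and the tools included DRAGEN, STAR and Cufflinks, while their roles, the annotation and the use of strand are not given in the sources used here. All columns were matched to samples by title, with 0 left over. The 2 rows that name no gene (2.59% to 8.71% and 0.101% to 0.584% of all counts) were left out.

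Of 24421 genes, 13688 passed filterByExpr (minimum count 10). All 10 libraries entered 1 fit of edgeR 4.0.16 (quasi-likelihood, robust, TMM scaling, two-sided, no covariate), with Benjamini-Hochberg adjustment over all genes tested and a threshold of 0.05. Standard errors came from the quasi-F statistic. The fit was run on simulated counts with 1 mean profile and equal dispersion for all genes. It recovered 65% of genes changed by a log2 fold change of 1 and 100% at 2, with 6 false calls. The simulation held no shift in tissue makeup like that of WT-2404, so it does not show how the fit behaves under one. CPM used TMM-scaled library sizes, and likeness used log2 CPM with a prior count of 2. Alternatives were DESeq2 1.42.0, other scalings, no filter, the 2 groups alone, the enzyme share as covariate and leaving out each library. The same settings for named pathway genes and marker lists were added after seeing the data. Exonic lengths came from GENCODE M21 (mm10) and promoters from RefSeq. Libraries within a group differed by more than sampling noise (chi-square per degree of freedom 26.5 to 988), so each was 1 replicate. The labels give no litter, batch or date.

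Members and lists were chosen with earlier results of these data known. All 8 members were named, with the 3 other tested genes of highest Pearson r for each, and pathway genes came from 4 lists. An allele that all groups share is not reported here.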

Additional observations from a re-analysis of the deposited data

How the results depend on the processing

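No paired analysis was possible because the groups share no mouse numbers. Genes called in KO against WT numbered 1009 in DESeq2 and 2835 by library size alone, beside 0 in edgeR. For Het the numbers were 326 and 3125. Of the 8 members, DESeq2 called 2 for KO and 1 for Het against WT, and library size alone called 4 and 3. Leaving out 1 library gave 0 to 1933 genes and 0 to 3 members for KO, and 0 to 1158 genes and 0 to 3 members for Het against WT, with every call above 0 coming without WT-2067. In KO against Het 0 genes were called in each setting.

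Library size alone moved the median log2 fold change of all genes to -1.17 (KO against WT), -1.36 (Het against WT) and 0.17 (KO against Het). Under it the sign turned in KO against WT for Igf2 (-0.71), Igfbp5 (-0.13), Igfbp6 (-0.31), Igf1r (-0.53), Irs2 (-0.33), Stc2 (-0.35), Ghr (-0.30) and Pappa2 (-0.083). It turned in Het against WT for Igf1 (-1.37), Igf2 (-1.09), Igfbp5 (-0.68), Igfbp6 (-0.56), Igf1r (-0.82), Irs2 (-0.73), Stc2 (-0.88) and Ghr (-0.42), and in KO against Het for Igfbp2 (0.043), Igfbp4 (0.22), Igfbp6 (0.25) and Igfbp7 (0.24). With the enzyme share as covariate it turned for Pappa2 in KO (-0.20) and, in Het against WT, for Igf1 (-0.048), Igf2 (-0.12) and Pappa (0.19). Igf1 in Het against WT was -0.00096 with RLE factors and -0.0010 in DESeq2, and Pappa was 0.0032 with enzyme genes left out of library sizes. The cause of these turns was not tested.

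Leaving out 1 library turned signs near 0. In Het against WT the ranges were -0.17 to 0.16 for Igf1, -0.17 to 0.53 for Igf2, -0.92 to 0.11 for Igfbp2 and -0.33 to 0.45 for Pappa, and in KO against WT -0.019 to 0.69 for Igf2. In KO against Het they were -0.077 to 0.33 for Igf2, -0.57 to 0.052 for Igfbp2, -0.078 to 0.29 for Igfbp3, -0.29 to 0.074 for Igfbp4, 0.014 to 0.74 for Igfbp5 (no turn), -0.25 to 0.23 for Igfbp6 and -0.18 to 0.16 for Igfbp7. Depth limits Igfbp2 most, with 0 to 37 counts per library.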
